A study of Rattus norvegicus with 2 samples.

Results

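The genes described here encode proteins that coat the cell's lipid droplets, fuse them, or control the first step of the breakdown of the triglyceride they hold. They were taken as a list of names, drawn up by their known roles with earlier results of these data in view. The 10 genes were Cidea, Cideb, Cidec, Plin2, Plin3, Plin4, Plin5, Pnpla2, Abhd5 and G0s2, of 14217 genes represented on the array by a probe set annotated to exactly 1 gene. They had 12 such probe sets among 31042. Liver RNA of male Wistar rats, aged 2 months and weighing 250 to 300 g, was measured on 2 Affymetrix rat expression arrays. One array was from rats that had been fasted for 18 h, then given 5 ml of olive oil by mouth (about 16 ml per kg) and killed 4 h later. The other was from rats fasted for 18 h that received no fat. The labels name no genetic modification in either group. They do not give the number of rats behind an array, or whether the fasted rats were kept for the additional 4 h. With 1 array per group there was no replicate and no test, so each difference compares 2 arrays and carries no error over animals.

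Hepatocytes keep triglyceride in droplets bounded by a single layer of phospholipid, to which perilipins (the Plin genes) and CIDE proteins bind. Perilipins limit the access of lipases to the stored fat, and CIDE proteins at droplet contact sites move lipid into the larger droplet. Hydrolysis is begun by adipose triglyceride lipase, the product of Pnpla2, which the Abhd5 protein activates and the G0s2 protein inhibits. In liver these proteins, among others, influence how much fatty acid is held in droplets, burned, or sent out in very low density lipoprotein.

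The arrays were alike in brightness, with a median signal of 44.7 in the olive oil array and 42.5 in the fasted array. For beta-actin, whose 3' over 5' signal rises as RNA degrades, that ratio was 3.20 in the olive oil array and 2.63 in the fasted array, and for Gapdh it stood at 1.34 in the olive oil array and 1.28 in the fasted array. Hepatocyte markers lay within 1.5-fold for 7 of 7 measured genes, with differences from -0.09 to 0.28 on the log2 scale. On their brightest probe sets, their olive oil signals ran from 10739 (Cps1) to 18920 (Serpina1), where the highest signal of that array was 20497. How far such bright probe sets can show a difference was not tested. Signals are on the linear scale of the deposited table, and a log2 difference is always olive oil minus fasted, after signals under 12.8 were raised to that value. A gene counted as measured when its brightest probe set had a mean log2 signal of at least 5.37 (a signal of 41.4), which held for 9209 genes. Because different probe sets bind with different strength, the signal of one gene is not set against that of another.

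After olive oil, the droplet fusion gene Cidea and the triglyceride lipase gene Pnpla2 were more than 2-fold higher, and Cidec was 1.76-fold higher. The lipase activator Abhd5 was 1.77-fold lower and Cideb 1.54-fold lower. G0s2, the inhibitor of the lipase, was 1.36-fold lower. The perilipin genes differed by less than 1.5-fold. Of the 10 genes 9 were measured, Plin4 being too dim. Of these, 2 were at least 2-fold higher, where 3.21% of all measured genes were, and 0 were at least 2-fold lower, where 2.92% were. At 1.5-fold 3 were higher and 2 lower, against 9.44% and 10.1% of all measured genes, and the other 4 lay within 1.5-fold. The median log2 difference of the 9 was 0.35, against -0.01 over the measured genes of the array. It was 0.09 when genes with more than 1 probe set, Plin2 among them, were taken on their second brightest. In bulk liver, a change in the share of a cell type and a change in RNA per cell cannot be told apart.

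**Figure D1:**
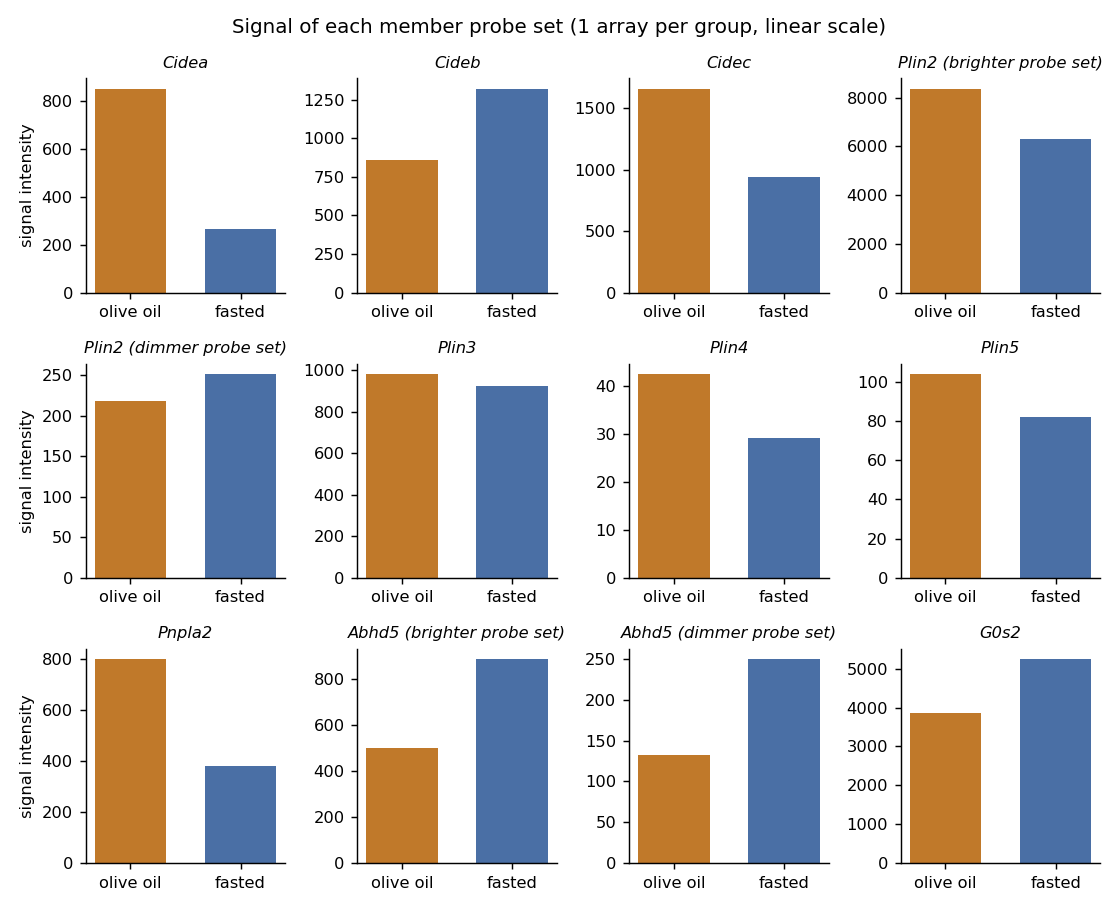
Signal intensity (linear, vertical axis from 0) of the 12 probe sets in the olive oil array (left bar) and the fasted array (right bar), 1 array per group and therefore without error bars. Cidea, Cidec and Pnpla2 stood higher after olive oil, Abhd5 on both of its probe sets, Cideb and G0s2 lower, and the 2 probe sets of Plin2 went opposite ways.

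The CIDE genes went both ways. Cidea, which in mice is low in lean liver and abundant in brown fat and fatty liver, had a signal of 850.2 in the olive oil array and 266.4 in the fasted array. This is 3.19-fold higher, a log2 difference of 1.67 that 0.728% of the measured probe sets equalled or exceeded. Cidec, known as fat-specific protein 27 in mice and a target of PPAR nuclear receptors, had 1659 in the olive oil array and 942.3 in the fasted array. Its log2 difference of 0.82 was reached or exceeded by 5.83% of the measured probe sets. Cideb, the CIDE gene of normal hepatocytes, which in mice takes part in loading very low density lipoprotein with lipid, was the member of the family with the opposite sign. Its signal was 859.3 in the olive oil array and 1320 in the fasted array, a log2 difference of -0.62, and 9.43% of the measured probe sets were as low or lower. Each CIDE gene had 1 probe set, so no second measurement within the array was at hand for these 3 genes.

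The perilipin genes differed by less than 1.5-fold on each of their probe sets. Plin2, the most prominent droplet coat of hepatocytes and a marker of their fat content, had 2 probe sets. Its brighter probe set read 8368 in the olive oil array and 6317 in the fasted array, 1.32-fold higher. Its dimmer one read 218.2 in the olive oil array and 252.0 in the fasted array, 1.15-fold lower. The log2 differences of 0.41 and -0.21 lay 0.61 apart. Over 2290 genes, single probe sets scattered around the mean of their gene with a standard deviation of 0.35. The gap between 2 probe sets has a wider spread than that, so 0.61 is not marked as unusual. Because the 2 signs were opposite, no direction is given for Plin2. Plin3, a coat protein that moves from the cytosol to newly forming droplets, had 982.4 in the olive oil array and 924.0 in the fasted array, 1.06-fold apart. Plin5, which tethers droplets to mitochondria in oxidative tissues, had 104.0 in the olive oil array and 81.8 in the fasted array, a log2 difference of 0.35. A difference as high as that of Plin5 was found in 20.9% of the measured probe sets. Plin4, best known from white fat, was dim at 42.6 in the olive oil array and 29.1 in the fasted array. A log2 difference of 0.55 for this gene became 0 when both signals were raised to the 50th percentile of all values.

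The genes of the lipase and its 2 regulators did not go one way. Pnpla2 had a signal of 800.6 in the olive oil array and 381.7 in the fasted array, 2.10-fold higher. Its log2 difference of 1.07 was reached or exceeded by 3.11% of the measured probe sets, and it became 0.996, just under 2-fold, when the arrays were centred on their medians. Abhd5, also called CGI-58, the coactivator of the lipase, was lower on both of its probe sets. The brighter one had 502.2 in the olive oil array and 888.4 in the fasted array, and the dimmer one 132.3 in the olive oil array and 250.4 in the fasted array. The log2 differences of -0.82 and -0.92 were 0.10 apart, well inside the scatter between probe sets of a gene, and 5.24% and 3.78% of the measured probe sets were as low or lower. G0s2, a small protein that binds the lipase and blocks it, had a signal of 3863 in the olive oil array and 5255 in the fasted array. Its log2 difference was -0.44, and 15.9% of the measured probe sets were as low or lower. Among the 7761 probe sets above the 75th percentile of mean log2 signal, 23.9% were at least as far from 0 in either direction.

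**Figure D2:**
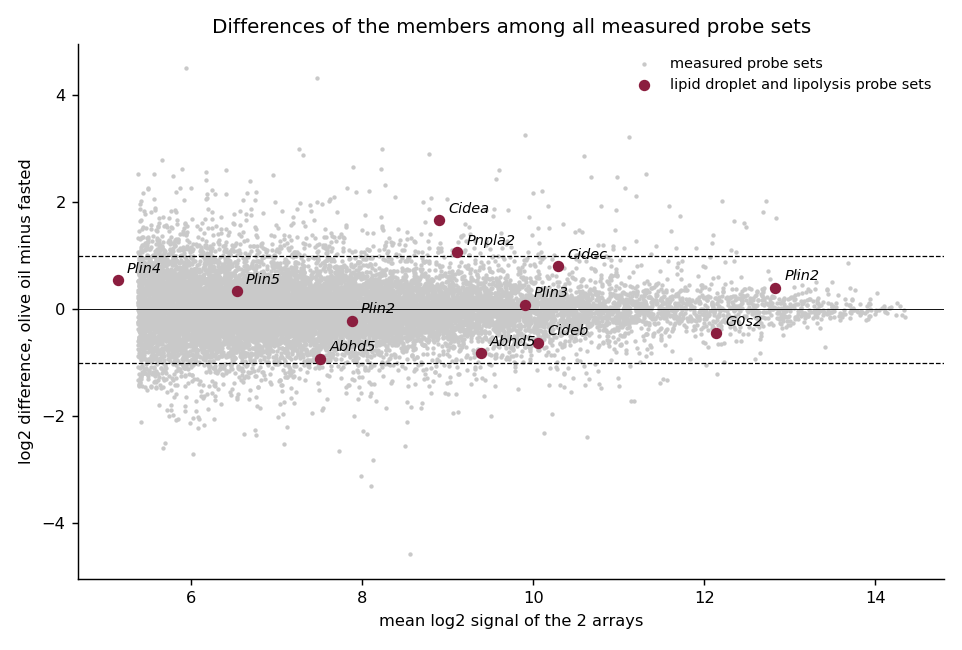
Log2 difference (olive oil minus fasted, vertical axis) against the mean log2 signal of the arrays (horizontal axis) for the measured probe sets (grey) and the 12 probe sets of the lipid droplet and lipolysis genes (red), with dashed lines at 2-fold. Cidea (1.67) and Pnpla2 (1.07) lie above the upper line and no member lies below the lower one.

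The start regions of Cidea, Pnpla2 and Abhd5 are shown because these genes had the largest differences in either direction, and the last 2 encode partners in the same step. The windows hold 250 bases before and 50 after the annotated transcription start in the GRCr8 build of RefSeq, which listed windows for 10 of the 10 genes. That of Cidea lies at chr18:63164567-63164866, that of Pnpla2 at chr1:205982029-205982328 and that of Abhd5 at chr8:130877622-130877921, each on the plus strand. They were searched on both strands for the nuclear receptor half-site AGGTCA, for the direct repeat AGGNCANAGGNCA bound by PPAR with its partner, for the glucocorticoid receptor half-site AGAACA and for the GC box GGGCGG. Capitals mark the matches.
Cidea: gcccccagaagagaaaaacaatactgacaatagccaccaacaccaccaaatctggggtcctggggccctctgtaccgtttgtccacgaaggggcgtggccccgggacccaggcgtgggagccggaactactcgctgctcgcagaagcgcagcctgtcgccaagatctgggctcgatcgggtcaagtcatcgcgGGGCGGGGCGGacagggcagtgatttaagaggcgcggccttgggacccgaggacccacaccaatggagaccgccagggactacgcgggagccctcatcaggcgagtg
Pnpla2: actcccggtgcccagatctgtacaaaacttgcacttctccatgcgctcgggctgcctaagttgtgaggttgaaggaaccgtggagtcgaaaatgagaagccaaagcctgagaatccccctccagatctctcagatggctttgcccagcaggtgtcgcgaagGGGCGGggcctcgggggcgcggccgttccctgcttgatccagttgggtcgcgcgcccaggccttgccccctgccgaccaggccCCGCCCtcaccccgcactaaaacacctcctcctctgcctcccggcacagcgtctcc
Abhd5: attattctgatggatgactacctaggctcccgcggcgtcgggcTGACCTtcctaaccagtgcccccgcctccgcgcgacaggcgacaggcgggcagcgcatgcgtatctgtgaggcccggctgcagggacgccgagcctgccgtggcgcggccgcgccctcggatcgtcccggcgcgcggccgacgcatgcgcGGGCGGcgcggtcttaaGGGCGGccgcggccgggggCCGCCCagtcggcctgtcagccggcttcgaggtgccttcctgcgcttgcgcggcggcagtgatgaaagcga
The Cidea window held 2 GC boxes that share a base, the Pnpla2 window 2 GC boxes, and the Abhd5 window 3 GC boxes and 1 nuclear receptor half-site on the opposite strand. GC boxes were present in 33.1% of 33469 such windows of the genome. The 10 genes had 15 windows, and 8 of the genes had a GC box in at least 1 of theirs. A gene with several windows has more chances of a match, so counts of genes are not shares of windows. The nuclear receptor half-site was present in 16.2% of all windows, and among the 10 genes in those of Plin5, Abhd5 and G0s2. The glucocorticoid receptor half-site was present in 20.7% of all windows and in 1 of the windows of Plin4. The direct repeat was found in 0.415% of all windows and in 0 of the 10 genes. A match shows only that these letters occur in the window.

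Other genes of lipid droplets and of cellular triglyceride breakdown also differed in both directions. Of 30 listed genes 28 were on the array and 25 were measured. Past 2-fold were 2 higher and 3 lower genes, where 3.21% and 2.92% of all measured genes were. At 1.5-fold 3 were higher and 6 lower, against 9.44% and 10.1% of all measured genes, with a median log2 difference of -0.05. Fitm2, an endoplasmic reticulum protein needed for droplet budding, had 1418 in the olive oil array and 673.0 in the fasted array, 2.11-fold higher, with 1.45-fold on its other probe set. Pcyt1a, the phosphatidylcholine synthesis enzyme that binds growing droplets, was 2.66-fold higher at 719.3 in the olive oil array and 270.6 in the fasted array, and 2.28-fold higher on its other probe set. Hilpda, a second inhibitor of the lipase, induced by hypoxia and fatty acids, had 388.6 in the olive oil array and 232.8 in the fasted array, 1.67-fold higher. G0s2 and Hilpda, both inhibitors of the lipase, thus had differences of opposite sign, but that of G0s2 (1.36-fold lower) was under 1.5-fold. Each gene rested on a single probe set.

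Among the genes that were lower, Ldaf1, a partner of seipin at sites of droplet assembly, had 60.8 in the olive oil array and 151.2 in the fasted array, 2.49-fold lower. Hsd17b13, a droplet protein of hepatocytes, had 1550 in the olive oil array and 3213 in the fasted array, 2.07-fold lower. Acsl3, an acyl-CoA synthetase of nascent droplets, was also 2.07-fold lower. Mettl7a, a droplet-associated methyltransferase-like protein, was 1.59-fold lower. Spart, the gene of the droplet protein spartin, was 1.61-fold lower on 1 probe set, its brightest, and had a log2 difference of 0.34 on the other. It is counted as lower by its brightest probe set, but because the signs were opposite no direction is given for Spart. Lipe, hormone-sensitive lipase, which acts after the triglyceride lipase, had 70.9 in the olive oil array and 108.0 in the fasted array, 1.52-fold lower. Mgll, monoglyceride lipase, which completes the breakdown, had 568.9 in the olive oil array and 529.3 in the fasted array, with log2 differences from 0.10 to 0.35 on its 3 measured probe sets. Bscl2, the gene of seipin itself, differed by -0.05 on the log2 scale, a value named after it was seen.

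Transcription factors and coactivators known to act on droplet genes differed unequally. Of 13 listed 12 were measured, and 3 of these were higher and 2 lower by 1.5-fold or more, against 9.44% and 10.1% of all measured genes. Ppargc1a, a coactivator of PPAR-alpha, had a log2 difference of 2.23 on its brightest probe set. Foxo1, a fasting-activated factor that in mice induces Pnpla2, had 438.9 in the olive oil array and 239.0 in the fasted array, 1.84-fold higher, while a dim probe set of the gene had -1.51 on the log2 scale. Cebpb, an inducible C/EBP factor, had 3669 in the olive oil array and 1515 in the fasted array, 2.42-fold higher. Srebf1, the lipogenic factor, was lower on both probe sets, by log2 differences of -1.14 and -1.67. Nr1h3, the oxysterol receptor LXR-alpha, had 1078 in the olive oil array and 1620 in the fasted array, a log2 difference of -0.59. Ppara, the receptor that many droplet genes answer to, was too dim to count as measured, at 35.8 in the olive oil array and 36.6 in the fasted array.

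**Figure D3:**
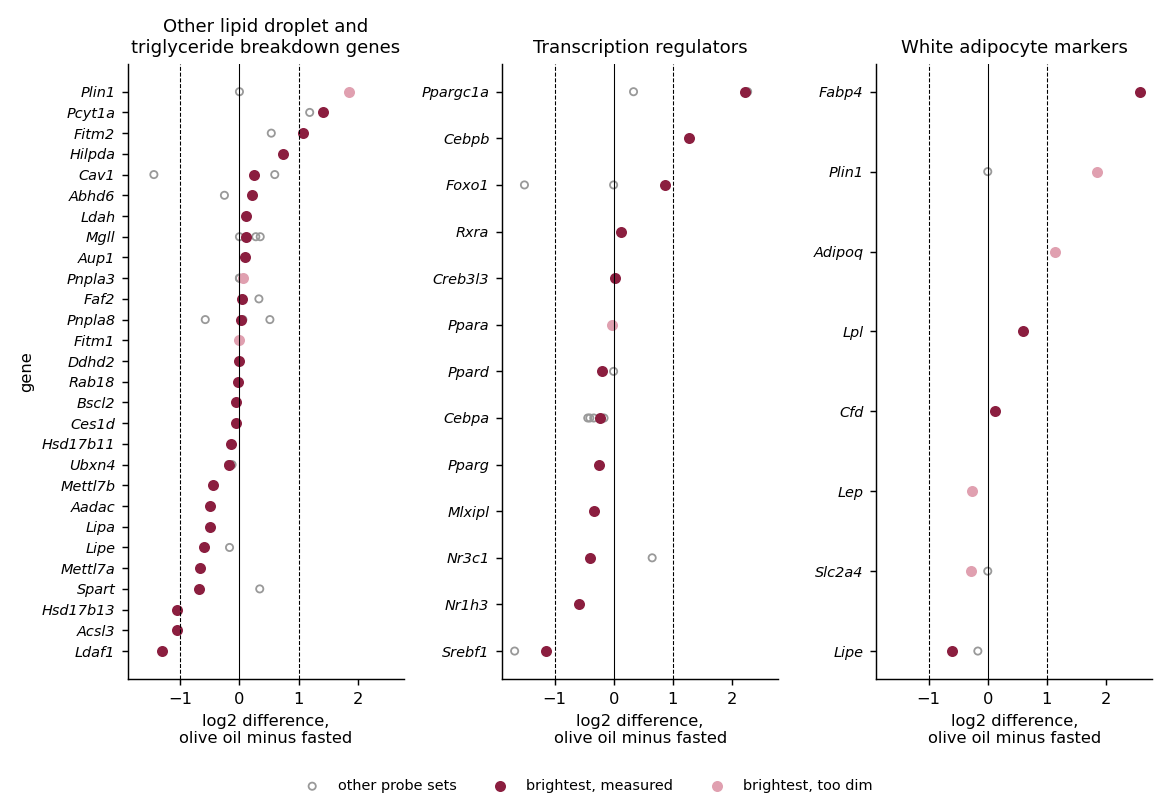
Log2 difference (olive oil minus fasted, horizontal axis) of other lipid droplet and triglyceride breakdown genes, of transcription regulators and of white adipocyte markers, with filled points for the brightest probe set of a gene (pale where too dim), open points for its other probe sets and dashed lines at 2-fold. Pcyt1a and Fitm2 are the measured droplet genes at least 2-fold higher, Ldaf1, Acsl3 and Hsd17b13 those at least 2-fold lower.

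Several of the genes that were higher are also expressed in fat. Of 9 white adipocyte markers 8 were on the array, 5 with a higher and 3 with a lower signal after olive oil, and their summed signal, to which bright probe sets add most, was 898.3 in the olive oil array and 606.0 in the fasted array. Of the 8, 4 were measured, 3 of them higher (Fabp4, Lpl and Cfd) and 1 lower (Lipe). The fatty acid binding protein gene Fabp4, which endothelium also expresses, had 175.2 in the olive oil array and 29.4 in the fasted array. Adipoq, the gene of adiponectin, had 28.2 in the olive oil array and 3.2 in the fasted array, and was too dim to count as measured. Plin1, the perilipin of adipocytes, had 55.3 in the olive oil array and 15.3 in the fasted array on its brightest probe set, also too dim, and on its other probe set was below the floor in both. The leptin gene Lep, with 14.0 in the olive oil array and 16.8 in the fasted array, and the glucose transporter gene Slc2a4, with 36.5 in the olive oil array and 44.5 in the fasted array, were too dim as well. Lpl, lipoprotein lipase, had 340.3 in the olive oil array and 225.2 in the fasted array, and Cfd, adipsin, had 177.9 in the olive oil array and 163.6 in the fasted array. None of the 8 genes was at 0 on either array, which does not show that they were expressed. In the fasted array Adipoq lay below the floor of 12.8. The part of adipocyte RNA in the differences of Cidea, Cidec, Plin4 and Pnpla2 was not tested. Of 5 brown fat markers, Ucp1, Dio2 and Elovl3 lay below the floor of 12.8 on both arrays. The other 2 were measured and were at least 2-fold higher, namely Cidea itself and Ppargc1a, which hepatocytes also express, with 164.2 in the olive oil array and 35.0 in the fasted array.

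**Figure D4:**
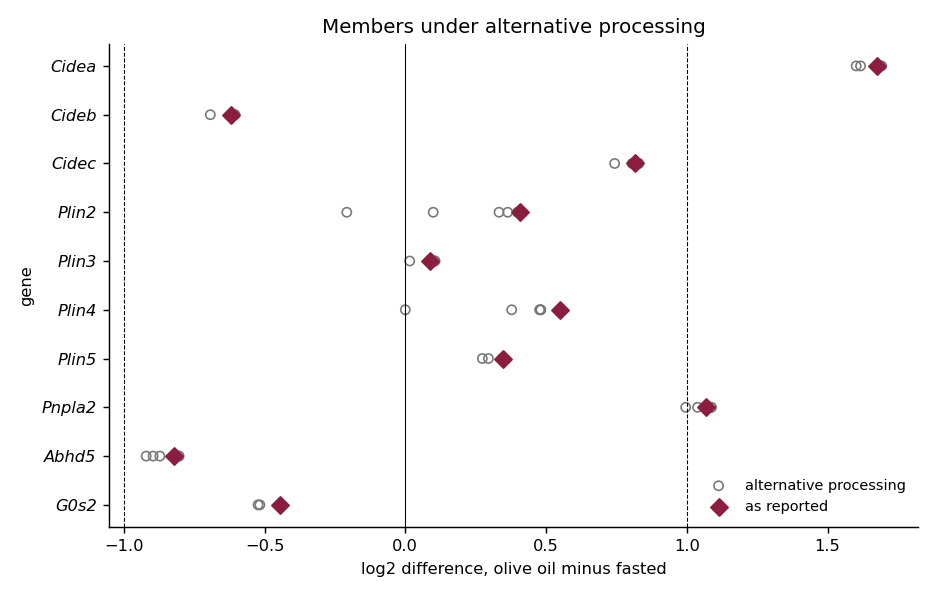
Log2 difference (olive oil minus fasted, horizontal axis) of each of the 10 genes as reported (diamonds) and under the alternative ways of processing (open circles), with dashed lines at 2-fold. Plin2 crosses 0, Plin4 reaches 0, and the other genes keep their sign, with Pnpla2 between 0.996 and 1.09.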

How the data were processed

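Total RNA of liver was labelled with biotin after conversion to cRNA, from 2 microg per array, per the labels' protocols. The deposited table gives a linear signal intensity for every probe set, which the authors made with Affymetrix Expression Console, per the submitters' processing notes. The sources used here do not name the algorithm, its version or a filter, and no detection calls were used. With 2% trimmed at both ends the mean was 200.1 for each array, as for arrays scaled to a common level, which takes the bulk of transcripts as equal between livers. The number of arrays limits the precision.

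Leaving out 57 control probe sets, signals were floored at their 25th percentile (12.8) and log2-transformed, with no further normalization. A fixed size of 2-fold stood in for a test. Probe sets numbered 20826 with 1 gene, 436 with several and 9780 with none listed. Symbols came from the platform's annotation. For 20758 of the probe sets with 1 gene, the gene ID was found in a RefSeq table of GRCr8, whose symbol was then used, changed or not. The brightest probe set stood for a gene. The 10 genes were named with all their probe sets, none of which was shared with another gene by annotation or had a shared-transcript suffix. Of the lists of other droplet genes and of regulators, measured genes at least 1.5-fold apart were named, with Plin1, Lipe, Mgll, Hilpda and Ppara whatever their values, and the adipocyte markers. Genes most like a member were not named, since with 2 arrays this sets signals of different probe sets against each other. The members, lists and motifs were chosen with earlier results of these data known. The functions were tested on simulated arrays. Alternatives, given in the closing section, covered the scaling, the floor, the filter, the choice of probe set and the fold. Python 3.11.15, numpy 2.4.6, pandas 2.3.3, statsmodels 0.14.6 (loess) and matplotlib 3.10.9 were used.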

Additional observations from a re-analysis of the deposited data

How the results depend on the processing

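Arrays were alternatively centred on their medians or normalized by quantiles or loess. The floor was dropped, raised to the 50th percentile or replaced by an added 16, and the filter dropped or moved to the 75th percentile. A gene was also taken as the mean of its probe sets, as its second brightest, or without probe sets of shared-transcript suffix, and the fold was set to 1.5 and 3. The genes at least 2-fold higher numbered 2 as reported and 1 (Cidea) both with centred arrays and at 3-fold, and those at least 2-fold lower numbered 0 as reported and 2 (Cideb and Abhd5) at 1.5-fold. Of 107 alternative values of single members, 105 moved by less than the scatter of 0.35 between probe sets of a gene. The exceptions were Plin2, which was -0.21 on its second brightest probe set, and Plin4, which was 0 with the higher floor. Many of the 107 values could not move, so their number is no measure of stability. For the 8 genes with 1 probe set, the choice of probe set changes nothing. Dropping the floor or changing the filter also leaves the value of a retained member as it was. Log2 differences ranged from 1.60 to 1.69 for Cidea, from 0.74 to 0.83 for Cidec, from -0.69 to -0.60 for Cideb, from 0.996 to 1.09 for Pnpla2, from -0.92 to -0.80 for Abhd5 and from -0.52 to -0.44 for G0s2. The median over the measured members ranged from 0.09, with the second brightest probe sets, to 0.38, with the filter dropped. Plin4 and Plin5 gave no value under the filter at the 75th percentile, nor Plin4 for the mean over measured probe sets. Centring moved the median difference of all measured genes from -0.01 to -0.09. No paired analysis was possible because each group was 1 array. The brightness of a probe set limits its precision, Plin4 and Plin5 being the dimmest members.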

Other observations

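Markers of other liver cell types mostly lay within 1.5-fold. This held for 6 of 6 measured macrophage genes, with log2 differences from -0.39 to 0.32, for 6 of 8 stellate cell genes, 5 of 7 endothelial genes, 2 of 2 measured cholangiocyte genes (Epcam and Spp1, with log2 differences of -0.55 and -0.03) and 2 of 4 blood cell genes. The genes named here were chosen after their values were seen. The stellate exceptions were Acta2, smooth muscle actin, with 69.3 in the olive oil array and 43.6 in the fasted array, and Lrat, of vitamin A storage, with 122.0 in the olive oil array and 183.6 in the fasted array. The endothelial exceptions were Fabp4 and Lyve1. Lyve1, a receptor of sinusoidal and lymphatic endothelium, had 2741 in the olive oil array and 1798 in the fasted array. The neutrophil genes S100a8 and S100a9 had 75.7 and 253.1 in the olive oil array, against 32.0 and 62.9 in the fasted array. The red cell genes Alas2 and Hbb had log2 differences of -0.42 and -0.04.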
